A study of Mus musculus with 14 samples.

Results

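Bone marrow adipocytes (BMAds) are a source of adipokines, the proteins by which fat cells signal to other tissues, and 7 adipokine genes were followed here in marrow from mice whose BMAds had or lacked the lipase encoded by Pnpla2. The genes were taken by symbol from the 55401 genes counted in every sample: Adipoq, Lep, Retn, Cfd, Rbp4, Rarres2 and Nampt. RNA was sequenced from plugs flushed out of the distal tibia, a site rich in marrow fat, in 14 samples from male C57BL6/SJL mice at 24 weeks of age. Each sample pooled 2 mice. There were 4 samples of BMAd-Pnpla2+/+ mice fed ad libitum (AL), 4 of BMAd-Pnpla2+/+ mice under 30% caloric restriction (CR) for 6 weeks, 3 of BMAd-Pnpla2-/- mice fed AL, and 3 of BMAd-Pnpla2-/- mice under CR.

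All mice of both genotypes carried an Osterix-driven FLPo recombinase together with an FLPo-dependent Cre placed behind the coding sequence of Adipoq, and the genotypes differed in whether Pnpla2 was floxed. The Cre cassette therefore sat in the Adipoq gene of controls and knockouts alike, and according to the study it lowers the amount of adiponectin protein. For Adipoq mRNA the study describes a small decrease in distal tibiae and caudal vertebrae that was not significant, and a rise in white fat. The study also describes that recombination does not reach every BMAd and occurs in some stromal cells. Pnpla2 encodes adipose triglyceride lipase, which takes the first fatty acid off stored triglyceride. Its level was 174 to 301 TMM-scaled counts per 1e+06 (CPM) in BMAd-Pnpla2+/+ AL, 502 to 1015 CPM in BMAd-Pnpla2+/+ CR, 131 to 170 CPM in BMAd-Pnpla2-/- AL and 177 to 267 CPM in BMAd-Pnpla2-/- CR. The knockout libraries were lower under CR (log2 fold change -1.90 ± 0.26 SE, edgeR adjusted p = 0.0386), whereas under AL the difference of -0.57 ± 0.25 did not pass (adjusted p = 1). These counts cover the whole gene and all cells of the plug, so they do not isolate the deleted part in BMAds.

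Adipokines differ in how closely they are tied to the fat cell. Adiponectin (Adipoq) and leptin (Lep) are the classic hormones of adipocytes, the first acting on insulin sensitivity and the second reporting energy stores to the brain. Resistin (Retn) is made mainly by adipocytes in mice. Adipsin (Cfd) is complement factor D, the protease that starts the amplifying step of the alternative complement pathway. Retinol-binding protein 4 (Rbp4) carries vitamin A in blood. Chemerin (Rarres2) attracts leukocytes through Cmklr1. Nampt, also named visfatin, is the rate-limiting enzyme of NAD salvage and is made by most cells. Fat in white depots is used up during restriction, whereas marrow fat is known to persist or expand.

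The 7 genes lie on 6 chromosomes of the mm10 assembly and all are protein coding. Adipoq (ENSMUSG00000022878.5) spans 23146536 to 23158028 on chromosome 16, Lep (ENSMUSG00000059201.12) spans 29060220 to 29073877 on chromosome 6, and Retn (ENSMUSG00000012705.16) spans 3655770 to 3660110 on chromosome 8. Cfd (ENSMUSG00000061780.6) spans 79890853 to 79892655 on chromosome 10, and Nampt (ENSMUSG00000020572.8) spans 32819545 to 32853349 on chromosome 12. These 5 genes are on the plus strand. Rbp4 (ENSMUSG00000024990.13), at 38116629 to 38125281 on chromosome 19, and Rarres2 (ENSMUSG00000009281.6), at 48569696 to 48572789 on chromosome 6, are on the minus strand. Reads over Rarres2 are uncertain, because 892 of its 2656 exonic bases are shared with Lrrc61 on the opposite strand. Without strand a read there is given to neither gene, and the count used for Rarres2 was 50.04% of its reverse-strand count in the 11 libraries that kept strand, against 100 to 102% for the other 6 genes.

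The promoters of 6 of the 7 genes were found in RefSeq (GRCm38.p6), and 4 of them are shown as examples from the 5 genes that rose under CR. The fifth, Rbp4, has more than 1 listed promoter and is not shown. Each stretch is the 250 bases that end at the base before the RefSeq start site, with capitals marking matches to 4 motifs searched on both strands: TTGCGCAA, which is the palindrome bound by C/EBP factors, CCAAT, which is found near many gene starts, TATAAA, which is a form of the box that positions transcription, and AGGTCA, which is the core of many nuclear receptor sites. The Lep stretch is chr6:29059971-29060220, the Adipoq stretch chr16:23146286-23146535, the Retn stretch chr8:3655520-3655769 and the Cfd stretch chr10:79890603-79890852, all on the plus strand.
Lep: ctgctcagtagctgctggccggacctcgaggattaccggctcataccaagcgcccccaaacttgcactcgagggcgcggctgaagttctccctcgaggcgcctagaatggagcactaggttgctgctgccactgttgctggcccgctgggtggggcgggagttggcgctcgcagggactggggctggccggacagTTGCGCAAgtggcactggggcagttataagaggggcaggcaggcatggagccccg
Adipoq: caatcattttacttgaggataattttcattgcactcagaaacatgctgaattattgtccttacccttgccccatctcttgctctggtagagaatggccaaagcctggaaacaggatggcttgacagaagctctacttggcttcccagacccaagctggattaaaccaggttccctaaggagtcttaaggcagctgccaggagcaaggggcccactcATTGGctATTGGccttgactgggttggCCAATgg
Retn: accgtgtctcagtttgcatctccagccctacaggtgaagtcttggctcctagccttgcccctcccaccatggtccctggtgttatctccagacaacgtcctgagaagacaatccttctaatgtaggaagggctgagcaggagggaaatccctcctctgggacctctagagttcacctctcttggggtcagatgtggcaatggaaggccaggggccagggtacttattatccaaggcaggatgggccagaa
Cfd: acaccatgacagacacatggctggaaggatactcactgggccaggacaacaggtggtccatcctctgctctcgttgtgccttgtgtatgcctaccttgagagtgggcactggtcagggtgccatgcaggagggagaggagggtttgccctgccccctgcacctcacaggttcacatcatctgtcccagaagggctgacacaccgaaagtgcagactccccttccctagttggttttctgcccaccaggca
The palindrome stood 55 to 48 bases before the Lep start and was found in 0.164% of 32851 RefSeq promoter windows of this length. Adipoq held 3 CCAAT matches, a motif present in 33.8% of the windows. Retn and Cfd matched none of the 4 motifs in these letters. Of the promoters not shown, that of Nampt held AGGTCA, present in 14% of the windows. Of the 2 windows listed for Rbp4, 1 held CCAAT and the other TATAAA, which was present in 12.4%.

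Sequencing gave 18898324 to 21665553 gene counts per sample and every adipokine was counted in all 14 samples, from 14 counts of Lep in a BMAd-Pnpla2-/- AL sample to 44294 counts of Cfd in a BMAd-Pnpla2+/+ CR sample. The 3 BMAd-Pnpla2-/- CR libraries differed from the rest in type: 50.2% ± 0.22 (SD, n = 3) of their strand-assigned reads lay on the first strand, against 4.30 to 4.62% in the other 11. Library type and the BMAd-Pnpla2-/- CR group cannot be told apart in any comparison that uses it. Counts without strand were used for all samples, and of the 7 genes this choice altered the counts of Rarres2 most. Retn between genotypes under CR, which did not pass on these counts, passed in the deposited matrix, which mixes count types. All tests were edgeR quasi-likelihood tests over 17671 genes with Benjamini-Hochberg adjustment, in which a gene passed at an adjusted p under 0.05.

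Per kilobase of exon, Cfd was the most abundant adipokine transcript in every group. In BMAd-Pnpla2+/+ AL it stood at 493 ± 319 CPM per kb (SD, n = 4), followed by Nampt at 15.6 ± 1.36 and Adipoq at 15.1 ± 4.75, then Rbp4 at 4.33 ± 3.44, Retn at 3.004 ± 1.43 and Lep at 0.993 ± 0.743. Nampt and Adipoq did not differ beyond their spread, and the means of Rbp4 and Retn also lay within it. In BMAd-Pnpla2+/+ CR the order was Cfd at 1675 ± 604, Adipoq at 73.0 ± 61.3, Rbp4 at 37.6 ± 14.96, Retn at 34.9 ± 11.7, Nampt at 19.4 ± 4.31 and Lep at 9.19 ± 4.48 CPM per kb. The spread of Adipoq there covered the means of Rbp4 and Retn. Rarres2 was left out of the order because its counts are incomplete.

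Caloric restriction raised Adipoq, Lep, Retn, Cfd and Rbp4 in BMAd-Pnpla2+/+ marrow, by between 3.40-fold for Cfd and 11.6-fold for Retn. All 7 genes had a higher mean under CR and 5 passed the test, against 15.1% of all genes tested that rose and 10.9% that fell. Every CR sample lay above every AL sample for 4 of the 7, against 12.4% of all genes. The median log2 fold change of the 7 was 2.27, beside 0.0028 over all genes. In whole marrow, a change in the number of adipocytes and in RNA per adipocyte cannot be told apart.

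Retn changed most. It was at 8.11, 3.59, 3.86 and 3.41 CPM in the 4 BMAd-Pnpla2+/+ AL samples and at 69.4, 49.6, 70.1 and 31.3 CPM in the 4 CR samples. The groups were far apart, with the lowest CR sample well over the highest AL sample (log2 fold change 3.53 ± 0.38 SE, adjusted p = 0.000395). Lep was at 6.95, 1.79, 1.60 and 2.99 CPM under AL and at 23.7, 32.0, 51.2 and 16.4 CPM under CR, again with no overlap (3.20 ± 0.50, adjusted p = 0.00207). Lep was thinly counted under AL, with 31 to 144 counts per sample. Rbp4 was at 12.7, 3.59, 3.19 and 3.74 CPM under AL and at 63.2, 52.0, 65.0 and 21.6 CPM under CR (3.11 ± 0.48, adjusted p = 0.00197). The AL sample at 12.7 CPM stood apart from the other 3, but still lay under all CR samples.

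Adipoq was at 28.6, 23.5, 13.8 and 17.4 CPM under AL and at 65.8, 223.6, 82.7 and 31.0 CPM under CR (log2 fold change 2.27 ± 0.52 SE, adjusted p = 0.00973). The groups did not overlap, but the CR samples spread widely: replicate 2 held most of the group's counts, and without it the log2 fold change was 1.52 ± 0.38 (adjusted p = 0.0224). Cfd was at 893.7, 289, 298 and 336 CPM under AL and at 1599, 2019, 1811 and 749 CPM under CR (1.77 ± 0.44, adjusted p = 0.0139). Here the groups overlapped, since the highest AL sample lay above the lowest CR sample.

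Rarres2 and Nampt did not pass. Rarres2 was at 29.0, 18.9, 18.7 and 18.6 CPM under AL and at 27.1, 54.8, 35.2 and 15.7 CPM under CR (log2 fold change 0.64 ± 0.32 SE, adjusted p = 0.153), and the lowest of the 8 samples was a CR sample. On reverse-strand counts of the 11 libraries that kept strand, which restore its shared bases, the value was 0.55 ± 0.32 (adjusted p = 0.215). Nampt was at 86.3, 83.4, 73.2 and 72.9 CPM under AL and at 94.9, 92.2, 128.0 and 76.1 CPM under CR (0.31 ± 0.13, adjusted p = 0.0943), and its AL samples had the smallest relative spread of the 7 genes.

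**Figure D1:**
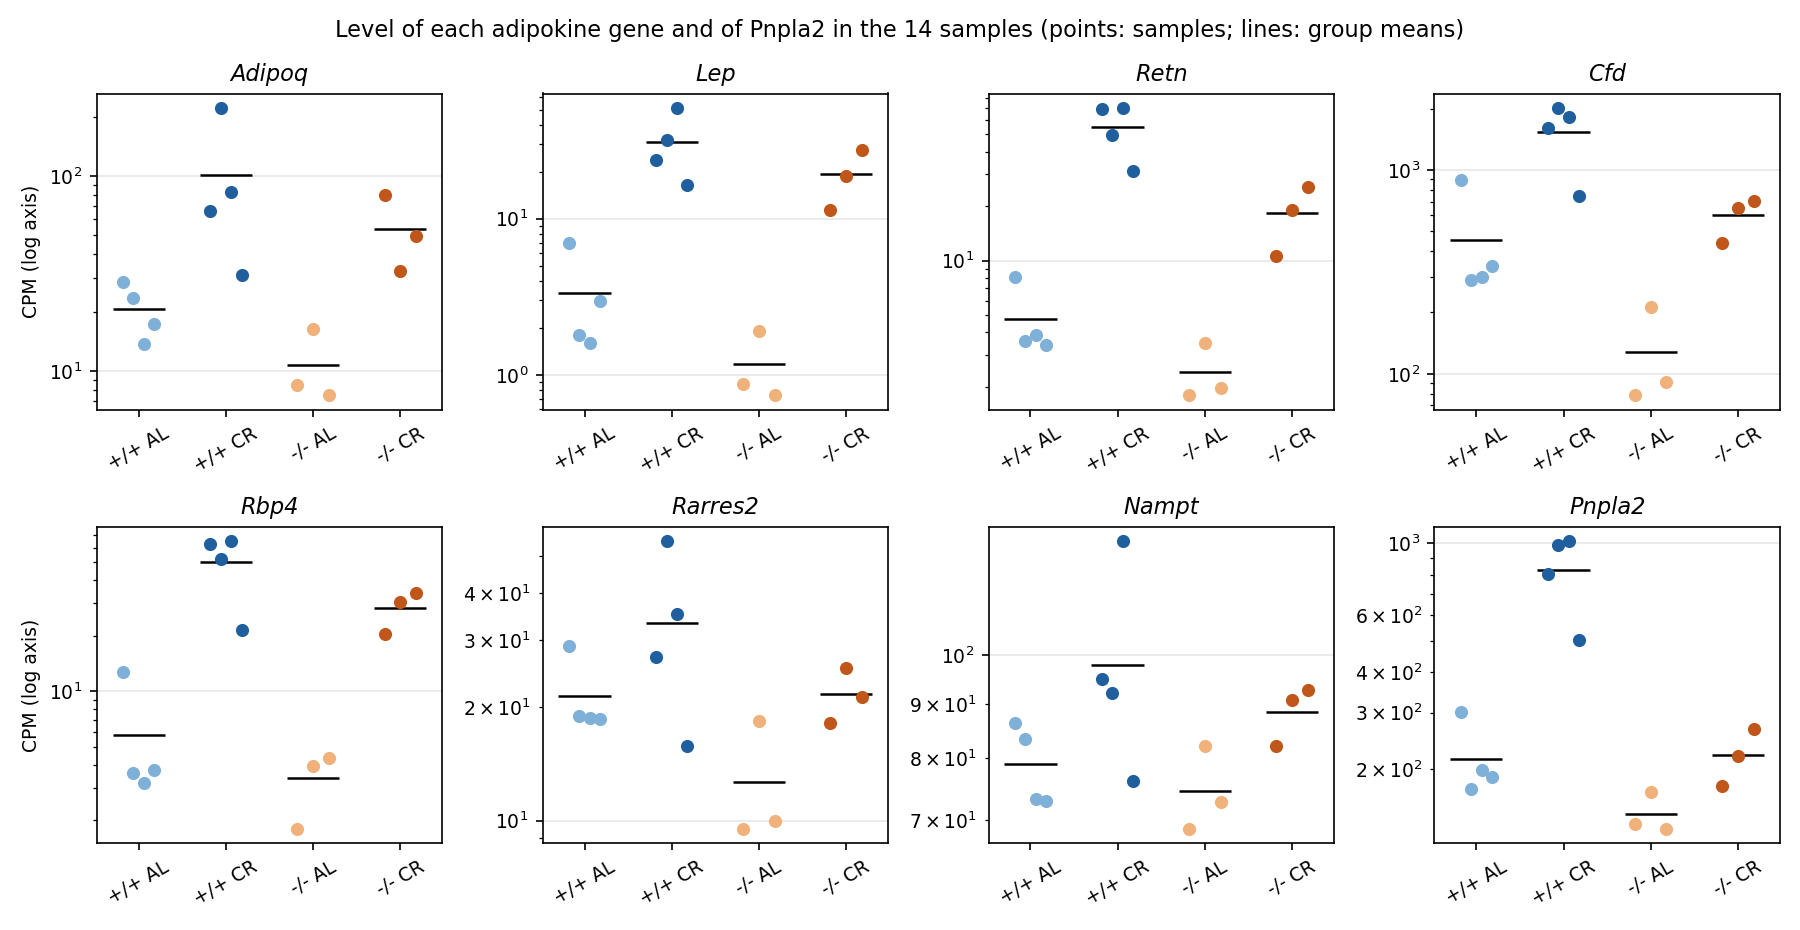
CPM (log axes that differ between panels) of the 7 adipokine genes and of Pnpla2 in each of the 14 samples, by genotype and diet, with group means as lines. The CR samples of Lep, Retn and Rbp4 lie above all AL samples of the same genotype, while those of Nampt sit close to them.

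The same 5 genes passed in BMAd-Pnpla2-/- marrow, where 6.04% of all genes rose and 5.57% fell. For 6 of the 7 the CR samples all lay above the AL samples, against 20.5% of all genes at this group size. The median log2 fold change was 2.31, beside 0.047 over all genes. Library type cannot be told apart from CR in this genotype.

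Lep showed the highest fold, 16.4. It was at 0.870, 1.90 and 0.740 CPM in the 3 BMAd-Pnpla2-/- AL samples, or 14 to 36 counts, and at 11.4, 18.8 and 27.7 CPM in the 3 CR samples (log2 fold change 4.04 ± 0.64 SE, adjusted p = 0.00737). Every CR sample was several times any AL sample. Rbp4 was at 1.79, 3.95 and 4.34 CPM under AL and at 20.5, 30.4 and 34.3 CPM under CR (3.07 ± 0.57, adjusted p = 0.00980). Retn was at 1.79, 3.47 and 1.96 CPM under AL and at 10.6, 18.99 and 25.6 CPM under CR (2.93 ± 0.45, adjusted p = 0.00688). Both genes were clear of overlap.

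Adipoq was at 8.43, 16.4 and 7.51 CPM under AL and at 79.6, 32.6 and 49.0 CPM under CR (log2 fold change 2.31 ± 0.61 SE, adjusted p = 0.0306). Cfd was at 78.6, 212.7 and 90.7 CPM under AL and at 438, 652 and 708 CPM under CR (2.23 ± 0.52, adjusted p = 0.0194). Neither overlapped, yet both calls rested on few samples. Adipoq no longer passed without BMAd-Pnpla2-/- AL replicate 1 (adjusted p = 0.113) or 3 (0.113), or CR replicate 1 (0.0725) or 3 (0.0731). Cfd no longer passed without AL replicate 1 (adjusted p = 0.0792) or 3 (0.0789), or CR replicate 2 (0.0515) or 3 (0.0653).

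Rarres2 was at 9.52, 18.4 and 9.94 CPM under AL and at 18.1, 25.3 and 21.3 CPM under CR in BMAd-Pnpla2-/- marrow (log2 fold change 0.77 ± 0.38 SE, adjusted p = 0.196). Its direction turned to -0.37 ± 0.35 in the deposited count matrix, which holds strand-specific counts for 11 samples and strandless ones for the 3 BMAd-Pnpla2-/- CR samples. Nampt was at 68.7, 82.2 and 72.8 CPM under AL and at 82.2, 90.7 and 92.7 CPM under CR (0.25 ± 0.15, adjusted p = 0.302). Its highest AL and lowest CR samples were equal to 3 digits.

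No adipokine passed the test between genotypes. Under AL the mean of all 7 genes was lower in BMAd-Pnpla2-/- than in BMAd-Pnpla2+/+ marrow. Of all genes, 52.0% had a negative log2 fold change. None of the 7 passed, and edgeR called 0% of all genes (700 genes had an unadjusted p under 0.05, and DESeq2 called 18). The lowest p among the 7 was that of Cfd (log2 fold change -1.83 ± 0.49 SE, adjusted p = 0.917), whose BMAd-Pnpla2-/- samples all lay under the BMAd-Pnpla2+/+ samples. The same held for Rarres2 (-0.76 ± 0.36, adjusted p = 1), which made 2 of the 7 genes without overlap, against 3.14% of all genes lower in this way. The other differences were -1.51 ± 0.62 for Lep, -0.98 ± 0.43 for Retn, -0.95 ± 0.57 for Adipoq, -0.79 ± 0.54 for Rbp4 and -0.08 ± 0.14 for Nampt, each with an adjusted p of 1.

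Under CR all 7 means were again lower in BMAd-Pnpla2-/- marrow, beside 51.3% of all genes with a negative log2 fold change, and none of the 7 passed. Only 2 of all genes tested (0.0113%) passed this comparison in edgeR, 1 of them Pnpla2, while 4095 had an unadjusted p under 0.05. Retn was at 31.3 to 70.1 CPM in BMAd-Pnpla2+/+ CR and at 10.6 to 25.6 CPM in BMAd-Pnpla2-/- CR, a difference of -1.58 ± 0.38 (adjusted p = 0.065). Cfd was at 749 to 2019 CPM and at 438 to 708 CPM (-1.37 ± 0.48, adjusted p = 0.127). The genotypes did not overlap for these 2 of the 7 genes, against 8.06% of all genes. Both calls depended on the test: Retn passed with DESeq2 (adjusted p = 0.00217) and without BMAd-Pnpla2+/+ CR replicate 4 (edgeR adjusted p = 0.0204), and Cfd passed without that replicate (0.0435) but not with DESeq2 (0.0657). Those settings also called many more of all genes, 1608 with DESeq2 and 2112 without that replicate. The remaining differences were -0.91 ± 0.54 for Adipoq, -0.83 ± 0.48 for Rbp4, -0.68 ± 0.49 for Lep, -0.62 ± 0.35 for Rarres2 and -0.14 ± 0.14 for Nampt, with adjusted p from 0.302 to 0.565. The 2 genotype comparisons and the 2 diet comparisons share groups, so their values are not independent of each other.

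The response to CR was not shown to differ between genotypes for any adipokine. The interaction, the log2 fold change in BMAd-Pnpla2-/- minus that in BMAd-Pnpla2+/+, was 0.84 ± 0.78 for Lep, 0.47 ± 0.65 for Cfd, -0.61 ± 0.57 for Retn, 0.13 ± 0.50 for Rarres2, 0.04 ± 0.76 for Adipoq, -0.04 ± 0.73 for Rbp4 and -0.06 ± 0.20 for Nampt. The adjusted p ranged from 0.702 to 0.990. No gene passed this test (0% of those tested, 1836 with an unadjusted p under 0.05, 58 called by DESeq2). For the 5 genes that passed under CR the standard errors were 0.57 to 0.78 log2 units, and differences of that size between genotypes were not detectable.

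**Figure D2:**
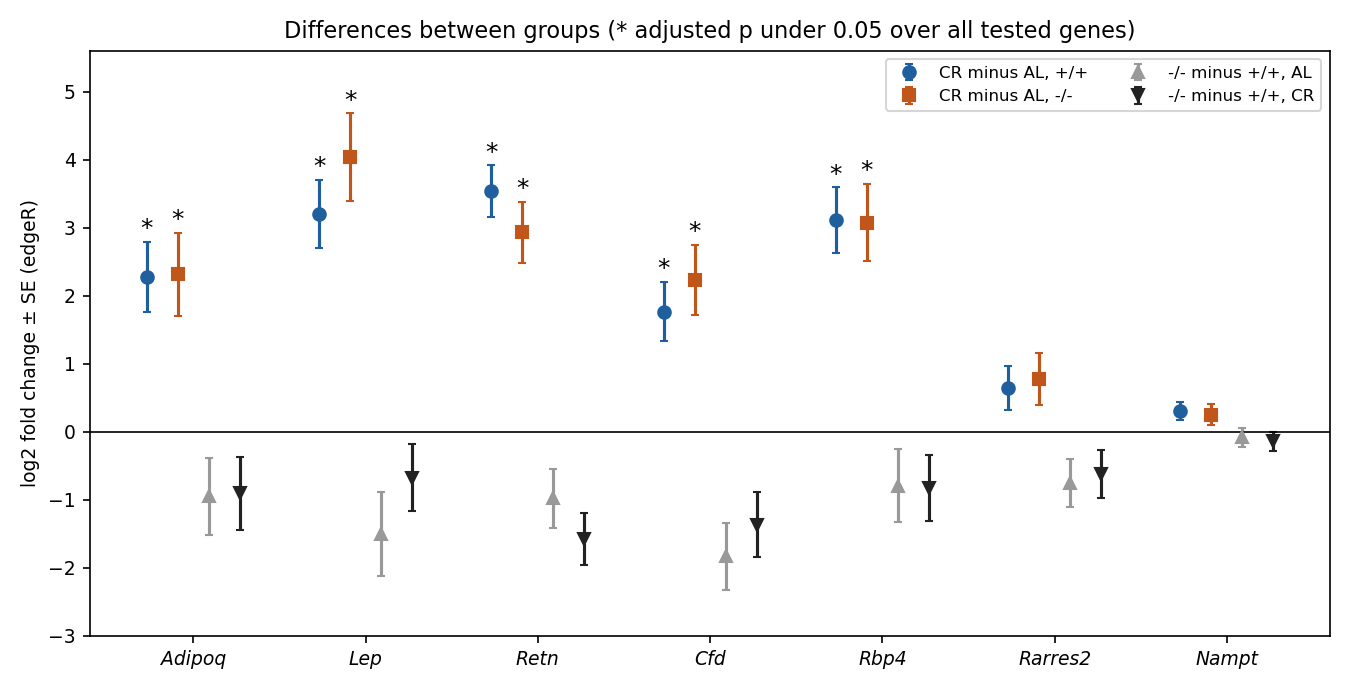
Log2 fold changes with standard errors (edgeR) of the 7 adipokine genes for CR minus AL in each genotype and for BMAd-Pnpla2-/- minus BMAd-Pnpla2+/+ in each diet. Stars mark adjusted p under 0.05, which the 5 genes Adipoq, Lep, Retn, Cfd and Rbp4 reached in both diet comparisons and none reached between genotypes.

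Genes that mark adipocytes moved with the adipokines. The summed level of 11 adipocyte markers, among them the lipid droplet genes Plin1, Plin4 and Cidec, was 974 to 1552 CPM in BMAd-Pnpla2+/+ AL, 2124 to 4401 CPM in BMAd-Pnpla2+/+ CR, 709 to 1119 CPM in BMAd-Pnpla2-/- AL and 1523 to 2253 CPM in BMAd-Pnpla2-/- CR. Of the 11, 9 rose under CR in BMAd-Pnpla2+/+ and 7 in BMAd-Pnpla2-/-, against 15.1% and 6.04% of all genes. Their median log2 fold changes were 1.54 and 1.55. Slc2a4, the insulin-responsive glucose transporter, rose by 1.55 ± 0.13 and 1.01 ± 0.15, and Fabp4, a fatty acid carrier, by 2.03 ± 0.29 and 1.55 ± 0.33 (log2 fold change ± SE, edgeR adjusted p from 5.12e-05 to 0.0149). Of 7 brown adipocyte markers 5 were tested, and Cidea (3.46 ± 0.71) and Ppargc1a (1.10 ± 0.37) rose in BMAd-Pnpla2+/+. None of the 5 passed in BMAd-Pnpla2-/-, although Cidea was at 3.06 ± 1.26 and Ppargc1a at 1.46 ± 0.48 there. Cidea and Ppargc1a were sparse, with means of 14.6 and 32.8 counts per sample, and no gene passed the interaction. Ucp1, which defines brown fat, had at most 5 counts in any sample. Between genotypes none of the 11 adipocyte markers passed, but like the adipokines most were lower in BMAd-Pnpla2-/- marrow. Under AL this held for 10 of the 11, with a median log2 fold change of -0.77, against -0.95 for the 7 adipokines. Under CR it held for all 11, with a median of -0.88, against -0.83.

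Lep, Retn and Rbp4 rose beyond the mean of 11 adipocyte markers in both genotypes. Against the droplet genes Plin1, Plin4 and Cidec alone, only Lep did so in both. The 11 markers rose unequally, with log2 fold changes of 0.87 to 2.11 in BMAd-Pnpla2+/+ and 0.38 to 2.51 in BMAd-Pnpla2-/-. The size of the excess therefore depends on the reference. Both references were chosen after the values had been seen. After each sample's mean log2 CPM of the 11 markers was subtracted from that of every gene, CR still raised the 3 genes in both genotypes (limma, adjusted over the 17671 genes). The added log2 difference in BMAd-Pnpla2+/+ was 2.06 ± 0.28 SE for Retn (adjusted p = 0.00022), 1.82 ± 0.33 for Lep (0.00086) and 1.76 ± 0.36 for Rbp4 (0.00104). In BMAd-Pnpla2-/- it was 2.54 ± 0.38 for Lep (0.000777), 1.68 ± 0.41 for Rbp4 (0.0042) and 1.43 ± 0.33 for Retn (0.0035). Of all genes, 0.589% were higher relative to the markers in BMAd-Pnpla2+/+ and 0.345% in BMAd-Pnpla2-/-. The markers themselves rose under CR, so few genes could lie above them. The 3 adipokines already had the highest CR fold changes of the 7 in both genotypes, so the share is a description and carries no support. All 6 calls remained when any 1 sample was left out.

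Adipoq was not shown to differ from the markers, at 0.49 ± 0.42 (adjusted p = 0.279) in BMAd-Pnpla2+/+ and 0.88 ± 0.49 (0.10) in BMAd-Pnpla2-/-. Cfd lay between, at 0.38 ± 0.29 (0.232) in BMAd-Pnpla2+/+ and 0.93 ± 0.34 (0.0207) in BMAd-Pnpla2-/-, a call lost without BMAd-Pnpla2-/- AL replicate 1 or 3 or CR replicate 2 (highest adjusted p = 0.0823). Nampt was lower relative to the markers, at -1.19 ± 0.30 (0.00197) and -1.17 ± 0.35 (0.00862), and so was Rarres2, at -0.95 ± 0.28 (0.00495) in BMAd-Pnpla2+/+, with -0.59 ± 0.32 (0.0962) in BMAd-Pnpla2-/-. Such falls were the rule, with 85.2% of all genes lower relative to the markers in BMAd-Pnpla2+/+ and 78.9% in BMAd-Pnpla2-/-. With so many genes passing, the adjustment was mild near the threshold. Cfd in BMAd-Pnpla2-/- had an unadjusted limma p of 0.0134, beside 0.0207 after adjustment. Adjusted p from these ratios therefore stand closer to unadjusted p than those of edgeR. The same applied against the droplet genes, where 15381 and 16382 of the 17671 genes were lower.

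Against Plin1, Plin4 and Cidec alone, which are closely tied to the adipocyte, the picture was narrower. Lep stayed higher in both genotypes (1.45 ± 0.48, adjusted p = 0.00624, and 1.78 ± 0.55, adjusted p = 0.00408). Retn (1.69 ± 0.48, 0.00231) and Rbp4 (1.38 ± 0.48, 0.00947) stayed higher in BMAd-Pnpla2+/+ but not in BMAd-Pnpla2-/- (0.68 ± 0.55, 0.228, and 0.93 ± 0.56, 0.109). Adipoq at 0.11 ± 0.52 and Cfd at 0.0025 ± 0.46 in BMAd-Pnpla2+/+ were not shown to differ from the 3 droplet genes. The same held in BMAd-Pnpla2-/- (0.13 ± 0.60 and 0.18 ± 0.54), and departures the size of these standard errors were not detectable.

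**Figure D3:**
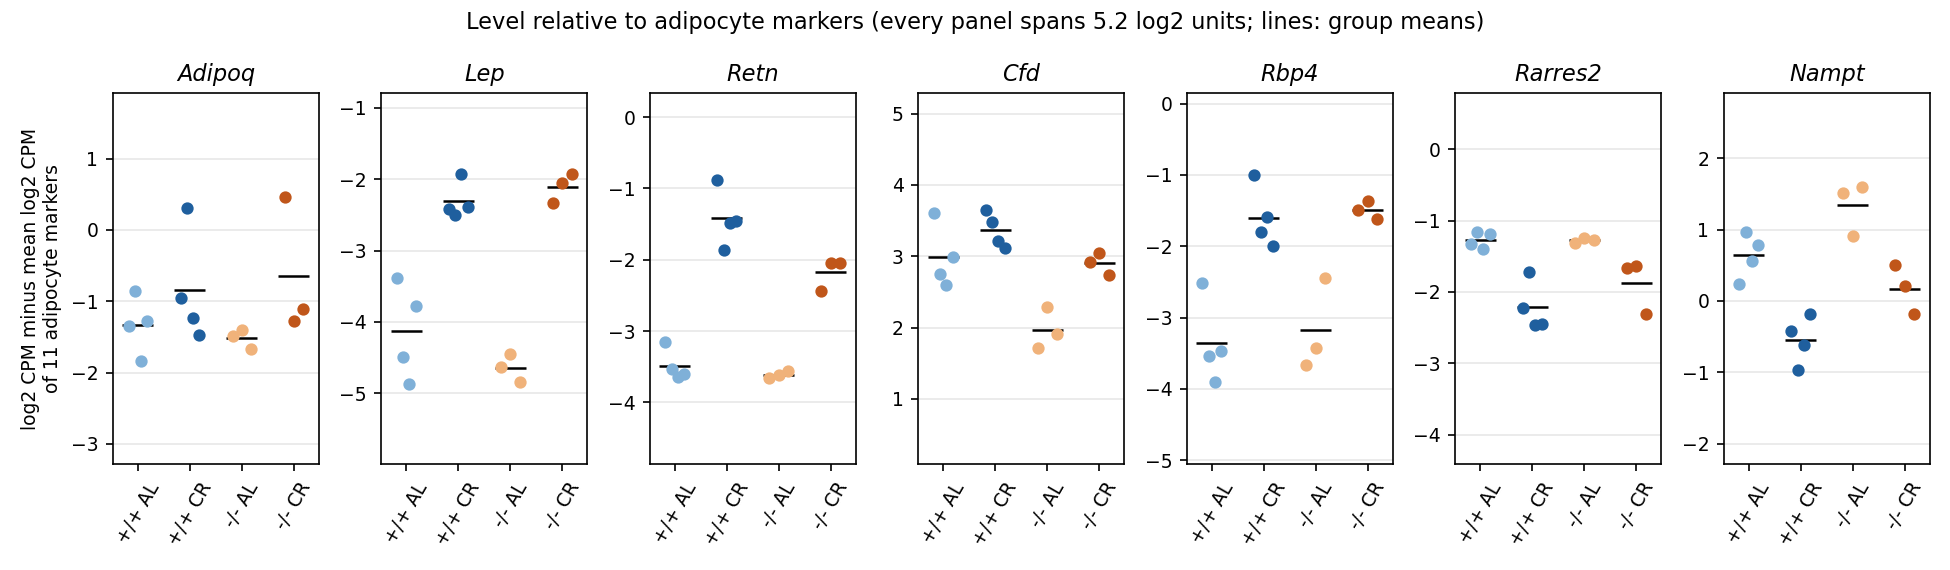
Log2 CPM of each adipokine gene minus the mean log2 CPM of 11 adipocyte markers in the same sample, by genotype and diet, with group means as lines and the same span of log2 units in each panel. Lep, Retn and Rbp4 are higher in every CR sample than in every AL sample, Adipoq overlaps between diets in BMAd-Pnpla2+/+, and Nampt is lower in every CR sample of a genotype than in its AL samples.

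In several groups 1 sample was highest or lowest for most adipokines. BMAd-Pnpla2+/+ AL replicate 1 had the highest level of its group for all 7 genes, and its summed adipocyte marker level was 1552 CPM, against 974 to 1025 CPM in the other 3. BMAd-Pnpla2+/+ CR replicate 4 had the lowest level of its group for all 7, with a marker sum of 2124 CPM against 3353 to 4401 CPM. Without it, Rarres2 (log2 fold change 0.87, adjusted p = 0.0279) and Nampt (0.41, adjusted p = 0.0190) also passed for CR in BMAd-Pnpla2+/+. BMAd-Pnpla2-/- AL replicate 2 was highest for 6 of the 7, with a marker sum of 1119 CPM against 709 to 751 CPM. BMAd-Pnpla2-/- CR replicate 1 was lowest for 6 of the 7, with a marker sum of 1523 CPM against 2052 to 2253 CPM, but highest for Adipoq.

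After group means were removed, log2 CPM of the adipokines correlated over the 14 samples with Pearson r from 0.30 (Adipoq and Retn) to 0.90 (Lep and Cfd) in the 21 pairs. Adipoq had r of 0.30 to 0.44 with Retn, Nampt, Rbp4 and Lep, 0.61 with Cfd and 0.79 with Rarres2, while Lep, Retn, Cfd and Rbp4 were at 0.78 to 0.90 with each other. Samples share their library and depth across genes, so these values describe the libraries and carry no test. The search for similar genes covered 13045 genes that averaged 50 or more counts. The 3 closest to Cfd were Plin4 (r = 0.98, Spearman rho 0.99), Col15a1 (0.98, 0.94) and Plin1 (0.97, 0.93), the first and last of which coat lipid droplets. Those closest to Retn were Mccc1 (0.97, 0.96), Mrap (0.96, 0.93) and Klhdc7a (0.95, 0.92). Lep was closest to Adcyap1r1 (0.96, 0.96), Tgfbrap1 (0.96, 0.95) and Usp35 (0.96, 0.96), and Adipoq to Trp53bp2 (0.96, 0.95), Gm14597 (0.91, 0.85) and Lrig3 (0.91, 0.84). Rbp4 was closest to Znfx1 (0.95, 0.83), Icam1 (0.92, 0.85) and Zfp623 (0.92, 0.85). Rarres2 was closest to Neo1 (0.98, 0.92), Mdfi (0.98, 0.97) and Cnksr3 (0.98, 0.94), and Nampt to Mtmr10 (0.96, 0.93), Ginm1 (0.94, 0.95) and Rragc (0.93, 0.96).

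Some receptors of the adipokines changed under CR as well. Of 13 receptors and binding partners, 10 were counted enough to test. Under CR in BMAd-Pnpla2+/+ 3 of the 10 rose and 1 fell, against 15.1% and 10.9% of all genes. The median log2 fold change of the 10 was 0.35. Gpr1, a chemerin receptor, Stra6, the cellular receptor of Rbp4, and Ttr, its partner in blood, had at most 14 counts in any sample. For adiponectin, Adipor2 rose by 0.39 ± 0.08 (SE, adjusted p = 0.00526), Adipor1 was at -0.19 ± 0.15 (0.335), and Cdh13, which binds adiponectin at the cell surface, was at 1.003 ± 0.35 (0.0503). Lepr, the leptin receptor, which in marrow marks reticular stromal cells, was at 0.68 ± 0.24 (0.0501) with 161 to 212 CPM in the AL and 207 to 395 CPM in the CR samples.

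Cmklr1, the signalling receptor of chemerin, rose by 0.92 ± 0.25 (SE, adjusted p = 0.02) in BMAd-Pnpla2+/+ under CR, and Ccrl2, which binds chemerin without signalling, was at -0.09 ± 0.22 (0.768). Cap1, a resistin-binding protein, fell by 0.39 ± 0.13 on the log2 scale (0.0433) and Tlr4 was at 0.16 ± 0.12 (0.332). Insr, the insulin receptor, rose by 0.50 ± 0.13 (0.0154) and Stra6l was at 0.32 ± 0.38 (0.552). In BMAd-Pnpla2-/- marrow 6.04% of all genes rose and 5.57% fell. There Insr alone rose, by 0.71 ± 0.15 (0.0141), and Cap1 fell by 0.54 ± 0.15 (0.0357), while the other 8 did not pass. These were Lepr at 0.71 ± 0.28 (0.105), Cdh13 at 0.63 ± 0.41 (0.33), Cmklr1 at 0.34 ± 0.29 (0.477), Ccrl2 at 0.24 ± 0.25 (0.571), Adipor2 at 0.22 ± 0.09 (0.117), Tlr4 at 0.22 ± 0.13 (0.295), Adipor1 at -0.07 ± 0.17 (0.833) and Stra6l at -0.13 ± 0.43 (0.871). None of the 10 passed between genotypes in either diet.

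Genes that act beside the adipokines gave mixed counts. Of 8 genes of the alternative complement pathway that adipsin serves, 1 fell and none rose under CR in BMAd-Pnpla2+/+, where 10.9% of all genes fell, and 2 fell in BMAd-Pnpla2-/-, where 5.57% did. C3, its central protein, fell by 0.44 ± 0.12 on the log2 scale in BMAd-Pnpla2+/+ (SE, adjusted p = 0.0208), and C5ar1 was at -0.37 ± 0.15 (0.0838). In BMAd-Pnpla2-/- C3 fell by 0.58 ± 0.14 (0.0227), as did Cfp, or properdin, by 0.47 ± 0.11 (0.0194). Cfb, the substrate of adipsin, was sparse at a mean of 8.64 counts per sample and did not pass (0.24 ± 0.46 and 0.65 ± 0.66).

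In NAD metabolism beside Nampt, 2 of 11 tested genes rose in BMAd-Pnpla2+/+, a share near the 15.1% of all genes. Nnmt, which consumes nicotinamide by methylating it, rose by 0.93 ± 0.30 (SE, adjusted p = 0.0352) there and by 1.25 ± 0.36 (0.0385) in BMAd-Pnpla2-/-, and Nmnat2 by 1.31 ± 0.43 (0.0404) in BMAd-Pnpla2+/+. Retnlg, a resistin-like gene of neutrophils, was at -0.47 ± 0.28 (0.22) and -0.07 ± 0.32 (0.913), beside the increase of Retn. Of 7 C1q/TNF related genes, relatives of adiponectin, 3 rose in BMAd-Pnpla2+/+ and none in BMAd-Pnpla2-/-, with C1qtnf1 at 0.99 ± 0.18 (0.00363) and 0.58 ± 0.21 (0.0828). Of 5 tested genes for adiponectin folding and secretion, Gstk1 (DsbA-L) rose by 0.62 ± 0.21 (0.0454) and Hspa5, a chaperone of the endoplasmic reticulum, fell by 0.32 ± 0.10 (0.0358) in BMAd-Pnpla2+/+, and Hspa5 fell by 0.39 ± 0.12 (0.049) in BMAd-Pnpla2-/-.

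Of 22 other secreted adipocyte factors tested, 11 rose and 1 fell under CR in BMAd-Pnpla2+/+, against 15.1% and 10.9% of all genes. In BMAd-Pnpla2-/- 3 rose, against 6.04% of all genes. The 3 that rose in BMAd-Pnpla2-/- also passed in BMAd-Pnpla2+/+: Nrg4, a growth factor of the neuregulin family (1.33 ± 0.24 SE, adjusted p = 0.00323, and 1.07 ± 0.28, 0.0265), Fst, the activin binder follistatin (1.32 ± 0.29, 0.00864, and 1.35 ± 0.34, 0.0259), and Kitl, stem cell factor (0.92 ± 0.20, 0.00861, and 1.03 ± 0.24, 0.0186). Sparc, a matrix protein, rose by 1.12 ± 0.26 (0.00971) in BMAd-Pnpla2+/+. The median log2 fold changes of 0.73 and 0.34 were well under the 2.27 and 2.31 of the 7 adipokines. The list is not specific to adipocytes, since Kitl is also among the reticular stromal markers used below. The lower medians therefore do not show that other adipocyte genes responded less.

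Of 11 transcription factors known at adipokine promoters, 6 rose and 1 fell under CR in BMAd-Pnpla2+/+, against 15.1% and 10.9% of all genes. Klf15, a glucocorticoid-induced factor, had the smallest p, rising by 2.30 ± 0.28 (SE, adjusted p = 0.000612), followed by Cebpa, a C/EBP factor of the mature adipocyte, at 1.19 ± 0.24 (0.00551). Pparg, the master regulator of adipocyte differentiation, rose by 1.18 ± 0.25 (0.00741), and Cebpd fell by 0.52 ± 0.11 on the log2 scale (0.00576). In BMAd-Pnpla2-/- Klf15 rose by 1.82 ± 0.33 (0.00951) and Cebpd fell by 0.60 ± 0.12 (0.0123), while Pparg was at 0.57 ± 0.29 (0.216) and Cebpa at 0.52 ± 0.27 (0.231). That these 2 passed in 1 genotype only does not show a difference between genotypes, and no gene passed the interaction.

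**Figure D4:**
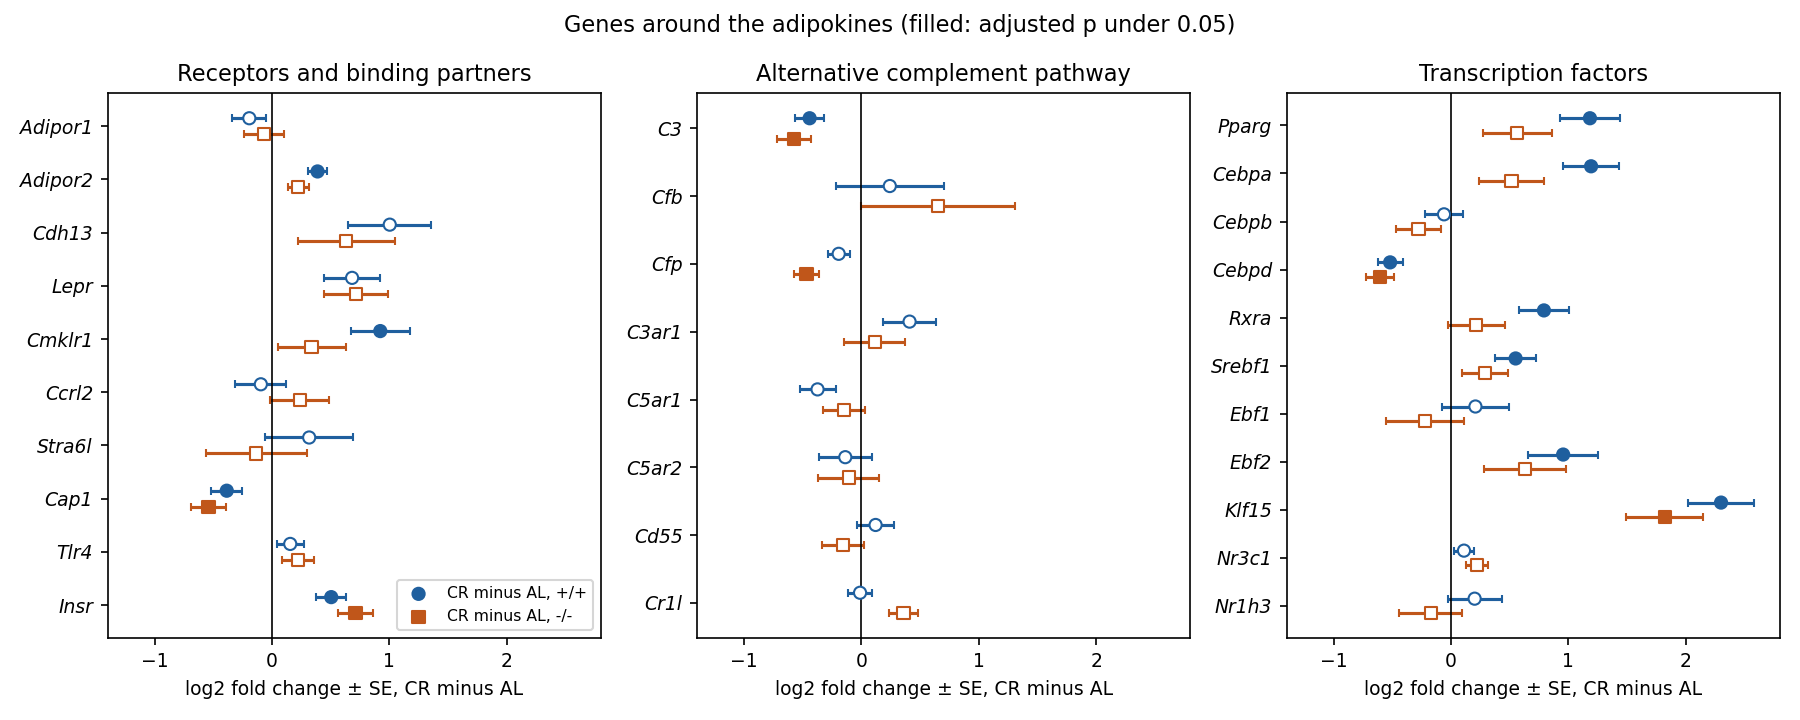
Log2 fold changes with standard errors (edgeR) for CR minus AL in both genotypes, for receptors and binding partners, genes of the alternative complement pathway and transcription factors, with filled symbols at adjusted p under 0.05. Klf15 has the highest values (2.30 and 1.82), while receptors stay between -0.54 and 1.003.

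Markers of other marrow cells moved under CR as well. Of all genes, 15.1% rose and 10.9% fell in BMAd-Pnpla2+/+, and 6.04% rose and 5.57% fell in BMAd-Pnpla2-/-. The summed level of 12 neutrophil markers was 27927 to 36461 CPM in BMAd-Pnpla2+/+ AL and 15274 to 25677 CPM in BMAd-Pnpla2+/+ CR, and 8 of the 12 fell. In BMAd-Pnpla2-/- (30450 to 31257 and 18985 to 30311 CPM) none passed, but all 12 had negative values, with a median log2 fold change of -0.44. Of 10 reticular stromal markers 4 rose in BMAd-Pnpla2+/+ and 1 in BMAd-Pnpla2-/-, of 8 osteoblast markers 5 and 1, of 8 endothelial markers 7 and none, and of 8 macrophage markers 2 and 1. Of 8 B cell markers 2 fell in each genotype, the pre-B genes Vpreb1 and Igll1. Of 8 erythroid markers none passed. The summed level of 8 skeletal muscle markers reached 111 CPM in a BMAd-Pnpla2-/- CR sample and at most 18.8 CPM in all other groups, and of 5 tested Myl1 rose in both genotypes. A pass in 1 genotype only does not show a difference between genotypes, and no gene passed the interaction. The part of these markers in the adipokine values was not tested.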

How the data were processed

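RNA from 14 samples of distal tibial marrow, each pooled from 2 mice, was sequenced by the authors, who describe a strand-specific paired-end protocol. The counts of the 3 BMAd-Pnpla2-/- CR libraries did not keep strand. Reads were checked with FastQC 0.11.9 and aligned with STAR to mm10. The deposited files hold read counts per gene from STAR, unstranded and for each strand, and the authors also deposited a count matrix. Its columns equal the reverse-strand counts in 11 samples and the unstranded counts in the 3 BMAd-Pnpla2-/- CR samples, so the unstranded counts were used here for all 14. Groups were taken from the sample labels.

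Counts of 55401 genes were filtered with filterByExpr over the 4 groups, scaled by TMM and fitted in 1 model of 4 groups with the robust quasi-likelihood test of edgeR 4.0.16, which left 17671 genes. Benjamini-Hochberg adjustment ran over all of them and the threshold was 0.05. CPM used TMM-scaled library sizes, and log2 CPM a prior count of 2. Total gene counts were 18898324 to 21665553 per sample, and sampling error is widest for Lep, with 14 counts at the lowest. Levels relative to adipocyte markers were fitted with limma 3.58.1 over all 17671 genes, an analysis added after the values had been seen. The pipeline was tested on simulated data. Positions and exon lengths came from GENCODE M21, promoters from RefSeq.

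The members, gene lists and tests were chosen with earlier results of these data known. Named were all 7 members, Pnpla2, every receptor or binding partner, up to 4 genes of smallest p in each other list, and the 3 genes most like each member. A gene of the complement list is not reported here and was left out of its counts. The lipid droplet genes Plin1, Plin4 and Cidec, which served as a second reference, were chosen after the values had been seen. The p-values measure the spread between pooled samples. Alternatives were DESeq2 1.42.0, other scalings, filters and count columns, a fold rule, fits of fewer groups, a replicate block and each sample left out. Replicate numbers did not pair samples: correlations of deviations ran from -0.376 to 0.326 over 19 same-number pairs.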

Additional observations from a re-analysis of the deposited data

Results flagged for a closer look

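BMAd-Pnpla2+/+ AL replicate 1 lay far above the other 3 samples of its group for 4 adipokines. It had 8.11 CPM of Retn, 894 CPM of Cfd, 12.7 CPM of Rbp4 and 29.0 CPM of Rarres2, and its gap to the nearest sample took 0.905, 0.921, 0.942 and 0.966 of the group's whole range. Of 14 groups of 4 samples examined, 4 stood out in this way, and chance gives about 1 in 20. The 4 cases are 1 sample, not independent events, and the adipokines correlate over samples. Their number therefore cannot be set against that rate. The same sample had the highest summed adipocyte marker level of its group, 1552 CPM against 974 to 1025 CPM, and the part of these markers in its adipokine levels was not tested.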

How the results depend on the processing

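Adipoq, Lep, Retn, Cfd and Rbp4 passed for CR in BMAd-Pnpla2+/+ under every alternative run, and Lep, Retn and Rbp4 did so in BMAd-Pnpla2-/-. In BMAd-Pnpla2-/- 3 of the 7 genes passed with no filter on low counts and 3 to 5 when 1 sample was left out. Between genotypes under CR 2 passed in the deposited matrix (Rarres2, adjusted p = 0.00804, and Retn, 0.0191), 1 with DESeq2, and 0 to 2 when 1 sample was left out. Over all genes, CR in BMAd-Pnpla2+/+ gave 1639 calls with a fold rule, 2742 when only the compared groups were fitted and 2228 to 6029 when 1 sample was left out. CR in BMAd-Pnpla2-/- gave 624 with the fold rule, 3898 in the matrix, 3147 with DESeq2 and 243 to 2435 without 1 sample. Genotype under AL gave 18 with DESeq2. Genotype under CR gave 1 with the fold rule, 2451 in the matrix, 0 with only the compared groups, 8 with total counts, 111 with no filter, 1608 with DESeq2 and 0 to 2112 without 1 sample. The interaction gave 678 in the matrix and 58 with DESeq2, which gave no adjusted p there for Lep, Retn, Rbp4 and Rarres2. The matrix mixes counts of different strands between the groups compared. The cause of the other shifts was not tested.

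Directions turned only for values that had not passed. Rarres2 for CR in BMAd-Pnpla2-/- was -0.37 in the matrix. Nampt between genotypes under CR ran from -0.25 to 0.012 when 1 sample was left out. In the interaction, Rbp4 was 0.061 and Rarres2 -0.89 in the matrix, Adipoq was -0.015 with no filter, and Rbp4 was 0.0068 with a replicate block. With 1 sample left out, the interaction ran from -0.36 to 0.79 for Adipoq, -0.093 to 0.99 for Cfd, -0.77 to 0.16 for Rbp4, -0.10 to 0.48 for Rarres2 and -0.17 to 0.10 for Nampt. The replicate block left 5 and 5 of the 7 genes passing for CR and 0 in the other comparisons, and 5 of 14 samples correlated best with their own number. Depth limits Lep most, with 14 to 36 counts in BMAd-Pnpla2-/- AL.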
